A study of Mus musculus with 12 samples.

Results

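The Nrf2 antioxidant target genes described here are 10 genes, Osgin1, Gclc, Gclm, Nqo1, Srxn1, Txnrd1, Hmox1, Gsr, Slc7a11 and Ephx1, of the 56205 genes in the count table. They were chosen from the comparison that is described below, because Osgin1 and Gclc stood high and Nqo1 low in it. Their values in that comparison are therefore given as a description, with no p-value, and nothing is supported by them. RNA came from whole livers of 12 young adult ob/ob mice (B6.Cg-Lep ob/J), obese animals without leptin, 1 library per mouse. All 12 were fed standard chow and, per the labels, all were male. The FLO group (6 mice) received chow alone, and the Fibrotic group (6 mice) also received DL-ethionine, an ethyl analogue of methionine. The labels disagree on the ethionine. One gives 0.165% in the drinking water, for 2 weeks per the design text, and another gives an injection of 0.15%. The methods of the study differ from both, with the lower percentage in the drinking water and a shorter course. The leptin deficiency is shared by both groups, so no lean animal enters any value.

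Nrf2, encoded by Nfe2l2, is a transcription factor that Keap1 holds in the cytoplasm and marks for degradation. Oxidants and electrophiles modify cysteines of Keap1, Nrf2 then reaches the nucleus, pairs with a small Maf protein and binds the antioxidant response element (ARE) of its target genes. The targets make glutathione, return oxidised glutathione, thioredoxin and peroxiredoxin to the reduced form, and detoxify quinones and epoxides. In liver, where most xenobiotics are metabolised, Nqo1, Gclc and Gclm are widely used readouts of the pathway.

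Library totals ran from 17815568 to 24814263 counts. Levels are given as CPM, counts scaled to a common library size after TMM normalisation, and the SD between libraries includes counting error. Hepatocyte markers were abundant in all libraries, with summed levels of 51071 to 86678 CPM in Fibrotic and 74906 to 90868 CPM in FLO livers, 3 of the 8 being called lower (Apoa1, Pck1 and Serpina1c) and 1 higher (Cps1). Of 5 cholangiocyte markers tested 3 were called higher (Epcam, Sox9 and Spp1), with summed levels of 80.8 to 275 CPM in Fibrotic and 47.2 to 88.0 CPM in FLO livers. Most of these sums was Spp1, which is also listed as a macrophage marker (70.3 to 238 CPM in Fibrotic and 39.8 to 76.1 CPM in FLO livers). Of 8 stellate cell markers 1 was called higher (Lrat, 21.1 against 12.8 CPM), 1 lower (Acta2, 4.09 against 9.06 CPM) and 6 neither, among them Col1a1 (23.3 against 27.1 CPM) and Dcn (160 against 133 CPM). The part of these shifts in the members' values was not tested. The library FLO 3 went against its label of a male mouse, with 3773 counts of Xist against 0 to 4 in the other 11 libraries and 4 counts of Ddx3y against 556 to 977. Fibrotic 4 had the highest TMM factor, 1.20, against 0.965 to 1.11 in the other Fibrotic libraries and 0.913 to 0.963 in FLO libraries. The factors of the Fibrotic and FLO groups thus did not overlap. The calls of the members without FLO 3 and without Fibrotic 4 are given below, with fold changes for only some genes. The share of mitochondrial genes was 4.93 to 7.88% among Fibrotic and 7.30 to 10.2% among FLO libraries, and the part of this in the results was not tested.

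Promoter windows of the RefSeq table (build GRCm38.p6, 250 bases before to 50 after a transcript start) were found for 7 of the 10 genes, Osgin1, Gclm, Nqo1, Srxn1, Txnrd1, Slc7a11 and Ephx1. Both strands were searched for the ARE core TGACNNNGC and for the longer NF-E2 form TGANTCAGC, which holds the AP-1 motif TGANTCA. The ARE core was in 14% and the NF-E2 form in 1.37% of the 27025 genes with a window. The 250 bases before the start are shown for the gene with the highest fold change (Osgin1), for a called gene that holds both motifs in its 300-base window (Srxn1) and for the gene that was lower (Nqo1), with matches in capitals.
Osgin1, chr8:119436897-119437146, plus strand: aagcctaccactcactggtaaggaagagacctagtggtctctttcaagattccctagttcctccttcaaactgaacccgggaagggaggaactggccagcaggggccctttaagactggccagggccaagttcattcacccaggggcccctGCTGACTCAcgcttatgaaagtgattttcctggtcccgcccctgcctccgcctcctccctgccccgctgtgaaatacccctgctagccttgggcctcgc
Srxn1, chr2:152105274-152105523, plus strand: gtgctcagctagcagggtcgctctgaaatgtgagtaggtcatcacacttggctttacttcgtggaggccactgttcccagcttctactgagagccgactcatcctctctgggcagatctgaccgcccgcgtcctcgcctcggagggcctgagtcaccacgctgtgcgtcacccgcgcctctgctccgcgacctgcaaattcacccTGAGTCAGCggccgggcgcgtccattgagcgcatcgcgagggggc
Nqo1, chr8:107403206-107403455, minus strand: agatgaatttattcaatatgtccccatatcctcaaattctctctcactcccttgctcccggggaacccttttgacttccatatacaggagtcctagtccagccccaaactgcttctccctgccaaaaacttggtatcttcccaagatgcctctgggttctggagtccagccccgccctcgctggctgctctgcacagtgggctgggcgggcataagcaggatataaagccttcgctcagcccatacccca
The NF-E2 form began 99 bases before the RefSeq start of Osgin1, on the minus strand, and 45 bases before that of Srxn1, on the plus strand. The RefSeq start of Osgin1 lies 3023 bases after the first base of the gene in GENCODE M21, so its window is inside the longest annotated span, and the starts of the Ephx1 window and of the Txnrd1 window shown next lie 3335 and 25255 bases after it in their genes. Srxn1 also held an ARE core 29 bases after its start, and a second AP-1 match 102 bases before it. The windows of Nqo1, Slc7a11 and Ephx1 held none of these motifs. For Gclm and for 1 of the 3 windows of Txnrd1, both on the minus strand relative to the gene, the ARE core is shown in capitals with 20 bases on each side.
Gclm, 134 bases before the start: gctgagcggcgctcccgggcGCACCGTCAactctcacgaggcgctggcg
Txnrd1, 92 bases before the start: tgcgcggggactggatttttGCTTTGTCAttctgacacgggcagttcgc
A match is a description of these letters and not evidence of binding, and a window without one says nothing of elements farther from the gene.

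Osgin1 and Gclc were the members whose Fibrotic livers all lay above all FLO livers. Of the 9 members that passed the low-count filter, 4 were called higher (Osgin1, Gclc, Srxn1 and Hmox1), 1 lower (Nqo1) and 4 neither (Gclm, Txnrd1, Gsr and Ephx1), and the tenth, Slc7a11, was too low to be fitted. A gene was called where edgeR gave an FDR of 0.01 or less and the log2 fold change, Fibrotic over FLO, was beyond 0.5 in either direction. Of all 13416 genes tested, 29.9% were called, 15.9% higher and 14.0% lower, and the groups did not overlap in 30.4%. The median log2 fold change was 0.44 over the 9 members and 0.03 over all genes tested. Because the members were chosen from this contrast, nothing is read from these shares. Without FLO 3 the same 5 members were called and Ephx1 was added as lower. Without Fibrotic 4 the 4 higher members were called and Nqo1 was not.

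**Figure D1:**
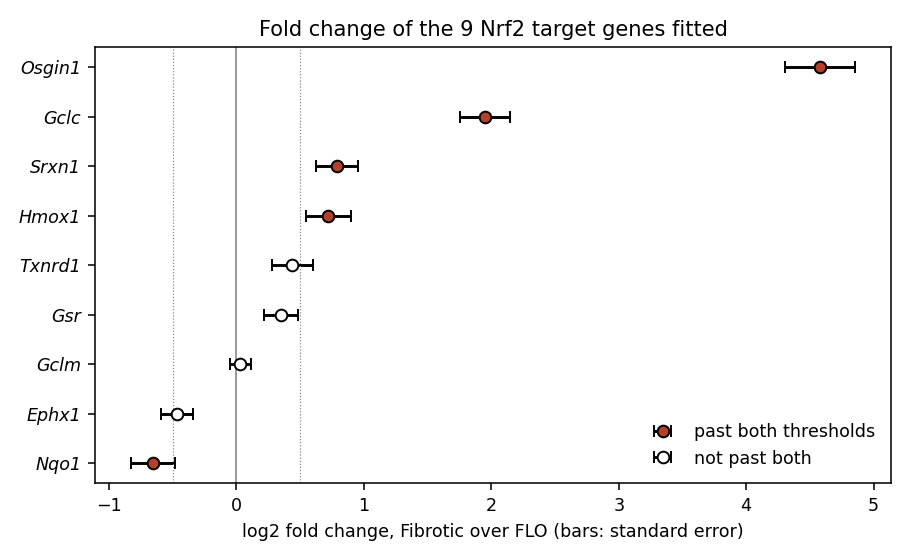
Log2 fold change, Fibrotic over FLO, of the 9 members fitted, with bars of 1 standard error (SE) and dotted lines at the fold threshold of 0.5. Filled points are past both thresholds. Osgin1 lies far to the right at 4.58, Gclm at 0.03, and Nqo1 and Ephx1 lie left of 0.

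Osgin1 encodes an oxidative stress-induced growth inhibitor (ENSMUSG00000074063, chromosome 8, 119434124 to 119446256, plus strand in GENCODE M21, mm10). Its level was 2864, 2063, 1250, 3749, 1811 and 1696 CPM in Fibrotic livers 1 to 6, and 73.1, 95.7, 89.5, 70.2, 99.7 and 134 CPM in FLO livers 1 to 6. The lowest Fibrotic liver was thus far above the highest FLO liver, and Fibrotic 4 was the highest of all. The means were 2239 ± 912 and 93.7 ± 23.1 CPM (SD, n = 6 each), which differed by 4.58 on the log2 scale (SE 0.28), or 23.9-fold. By absolute log2 fold change Osgin1 was number 37 of all genes tested. Leaving out any 1 library gave log2 fold changes from 4.38, without Fibrotic 4, to 4.71.

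In the plot of members by library, 7 of the 9 members fitted overlapped between groups. Over all genes tested the groups did not overlap in 30.4%, and nothing is read from the count of members.

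**Figure D2:**
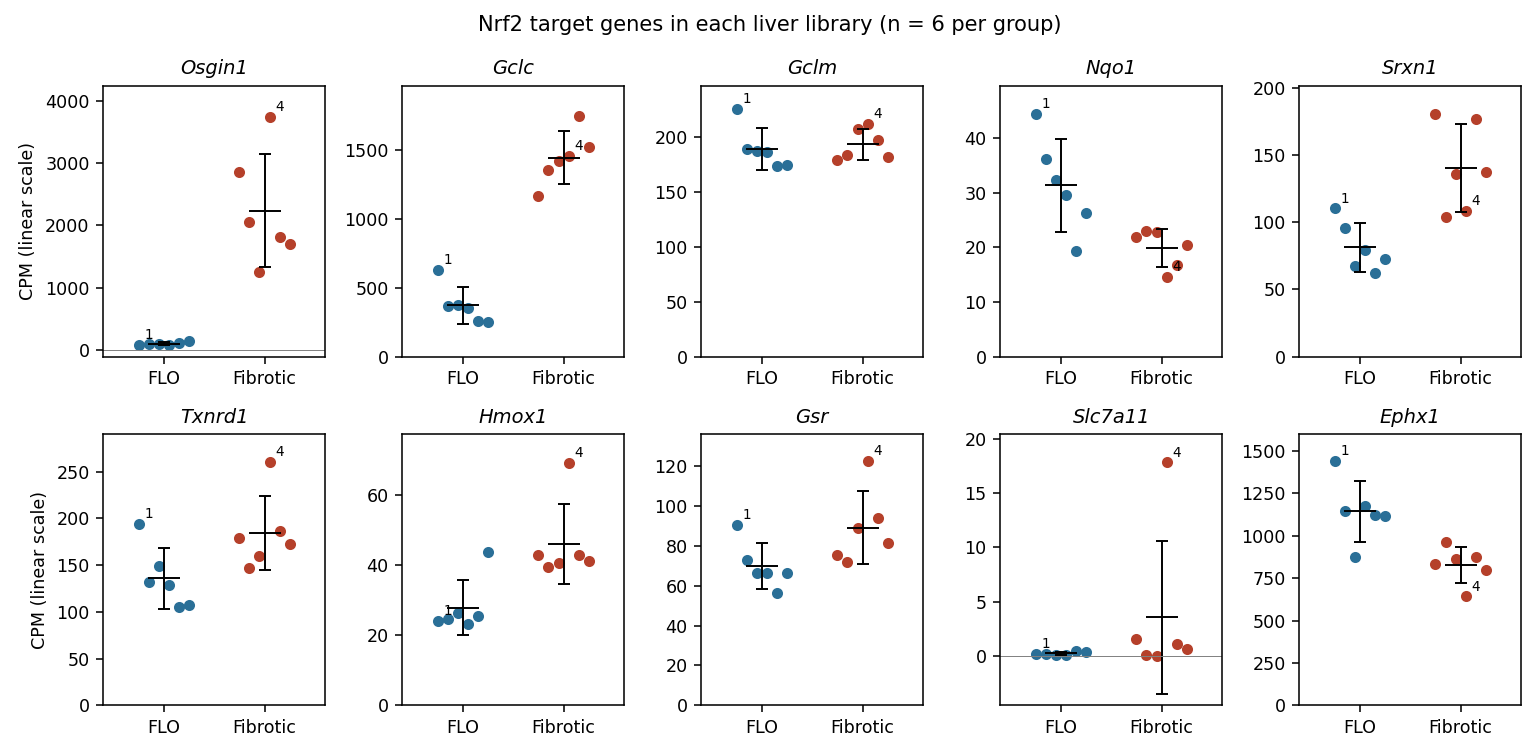
CPM (linear axis) of each of the 10 members in every library, with the mean and SD of the 6 livers of a group as a black bar. FLO 1 and Fibrotic 4 are numbered. Osgin1 and Gclc separate the groups, while the Slc7a11 mean in Fibrotic livers rests on Fibrotic 4.

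Glutathione is made in 2 steps, and glutamate-cysteine ligase, a dimer of the catalytic subunit Gclc and the modifier subunit Gclm, catalyses the first and rate-limiting one. Gclc (ENSMUSG00000032350, chromosome 9, 77754535 to 77794485, plus strand) stood at 1169, 1356, 1417, 1459, 1745 and 1522 CPM in Fibrotic livers 1 to 6. In FLO livers 1 to 6 it stood at 628, 367, 375, 356, 262 and 251 CPM. All Fibrotic livers lay above FLO 1, which was the highest FLO liver. The means of 1444 ± 190 and 373 ± 136 CPM (SD, n = 6 each) gave a log2 fold change of 1.95 (SE 0.19), or 3.87-fold, and 2.16 without FLO 1.

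Gclm (ENSMUSG00000028124, chromosome 3, 122245557 to 122270732, plus strand) did not follow its partner. It stood at 179, 184, 208, 212, 198 and 182 CPM in Fibrotic and at 226, 189, 187, 186, 174 and 175 CPM in FLO livers 1 to 6. The groups overlapped over nearly their whole range, and the highest liver of all was FLO 1. The log2 fold change was 0.03 (SE 0.08), and 0.01 to 0.09 with 1 library left out. Gclm shares 4.71% of its exonic bases with Gm17494 on the opposite strand and 3.88% with Gm6061 on the same strand, which held 50 and 43 counts in all against 45183 of Gclm.

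The count ratio of Gclc to Gclm was taken within each library and does not depend on the normalisation. The ratio was not corrected for transcript length (longest transcripts of 3423 bases for Gclc and 5589 for Gclm). It was 6.52, 7.37, 6.83, 6.88, 8.82 and 8.37 in Fibrotic livers 1 to 6, and 2.78, 1.94, 2.00, 1.91, 1.51 and 1.44 in FLO livers 1 to 6. Every Fibrotic ratio lay above every FLO ratio, with means of 7.46 ± 0.927 and 1.93 ± 0.480 (SD, n = 6 each). On the log2 scale the ratio differed by 1.98, or 3.93-fold, and by 1.90 to 2.09 with any 1 library left out. Gclc was chosen as high in this contrast and Gclm hardly differed, so the ratio restates the Gclc difference. Its separation of the groups is a description, and nothing is supported by it.

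**Figure D3:**
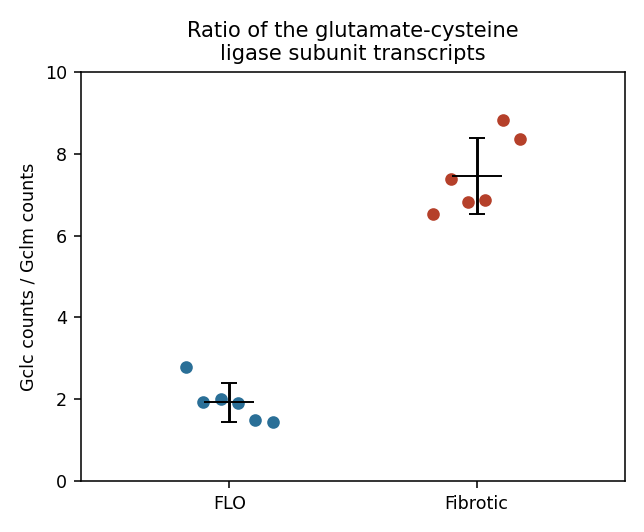
Counts of Gclc divided by counts of Gclm in each library (linear axis from 0), with the mean and SD of 6 livers as a black bar. FLO livers lie between 1.44 and 2.78 and Fibrotic livers between 6.52 and 8.82.

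Slc7a11 is the light chain of the cystine-glutamate antiporter xCT, which brings in cystine for glutathione (ENSMUSG00000027737, chromosome 3, 49892526 to 50443614, minus strand). It held 33, 2, 0, 381, 21 and 13 counts in Fibrotic livers 1 to 6 and 3, 3, 2, 2, 7 and 8 counts in FLO livers 1 to 6. Fibrotic 4 alone held most of the counts, while Fibrotic 2 and 3 lay at or below the lowest FLO count. The mean was 3.54 ± 7.03 CPM (SD, n = 6) in Fibrotic livers and 0.684 ± 0.668 CPM (SD, n = 5) without Fibrotic 4, against 0.223 ± 0.149 CPM (SD, n = 6) among FLO livers. On the log2 CPM scale (prior count 2) the means differed by 1.60 with, and 0.74 without, Fibrotic 4.

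Among the enzymes that return oxidised thiols to the reduced form, Srxn1 was called higher, and Txnrd1 and Gsr were not called. Srxn1, sulfiredoxin, repairs overoxidised peroxiredoxins (ENSMUSG00000032802, chromosome 2, 152105516 to 152111376, plus strand). It stood at 181, 104, 136, 109, 177 and 137 CPM in Fibrotic and at 110, 95.7, 67.4, 79.7, 62.3 and 72.4 CPM in FLO livers 1 to 6. Of the 6 Fibrotic livers 4 lay above every FLO liver, and the other two lay just under FLO 1. The log2 fold change was 0.79 (SE 0.17), or 1.73-fold, and 0.71 to 0.89 with 1 library left out.

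Txnrd1, the cytosolic thioredoxin reductase (ENSMUSG00000020250, chromosome 10, 82833951 to 82897712, plus strand), stood at 179, 147, 160, 260, 186 and 173 CPM in Fibrotic livers 1 to 6. In FLO livers 1 to 6 it stood at 194, 132, 149, 128, 105 and 107 CPM. Only Fibrotic 4 exceeded FLO 1. The log2 fold change of 0.44 (SE 0.16) was under the fold threshold, was 0.32 without Fibrotic 4, and was 0.57 and past both thresholds without FLO 1.

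Gsr, glutathione reductase (ENSMUSG00000031584, chromosome 8, 33652523 to 33698163, plus strand), stood at 75.4, 72.1, 88.9, 123, 94.0 and 81.6 CPM in Fibrotic livers 1 to 6. In FLO livers 1 to 6 it stood at 90.6, 72.7, 66.6, 66.6, 56.4 and 66.5 CPM. The groups overlapped, Fibrotic 4 again being the highest Fibrotic and FLO 1 the highest FLO liver. The log2 fold change was 0.35 (SE 0.13), and 0.25 without Fibrotic 4.

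The 2 members that detoxify quinones and epoxides were both lower on average in Fibrotic livers. Nqo1, the NAD(P)H quinone reductase (ENSMUSG00000003849, chromosome 8, 107388225 to 107403206, minus strand), stood at 21.9, 23.0, 22.8, 14.6, 16.8 and 20.5 CPM in Fibrotic livers 1 to 6. In FLO livers 1 to 6 it stood at 44.4, 36.2, 32.3, 29.5, 19.4 and 26.3 CPM. The groups overlapped, since FLO 5 lay below 4 of the Fibrotic livers. Means were 19.9 ± 3.48 and 31.4 ± 8.55 CPM (SD, n = 6 each), a log2 fold change of -0.66 (SE 0.17), or 1.58-fold lower. The call of Nqo1 rested on single libraries, being lost without Fibrotic 4, 5 or 6 or FLO 1 or 2, with log2 fold changes between -0.76 and -0.53 over all 12 omissions.

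Ephx1, microsomal epoxide hydrolase (ENSMUSG00000038776, chromosome 1, 180976210 to 181020904, minus strand), stood at 836, 960, 864, 642, 872 and 798 CPM in Fibrotic livers 1 to 6. In FLO livers 1 to 6 it stood at 1439, 1143, 874, 1175, 1124 and 1113 CPM. The groups overlapped only because FLO 3, the library that goes against its label, lay under Fibrotic 2. The log2 fold change of -0.47 (SE 0.12) was just inside the fold threshold, and it was past both thresholds without FLO 3, at -0.53, or without Fibrotic 2, at -0.51.

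Hmox1, heme oxygenase 1, opens the heme ring and releases iron (ENSMUSG00000005413, chromosome 8, 75093621 to 75100589, plus strand). It stood at 42.8, 39.5, 40.6, 69.2, 43.0 and 41.3 CPM in Fibrotic and at 24.1, 24.5, 26.3, 23.2, 25.6 and 43.8 CPM in FLO livers 1 to 6. The overlap came from FLO 6, which lay above 5 of the 6 Fibrotic livers, while the other 5 FLO livers lay below all of them. The log2 fold change was 0.72 (SE 0.17), 0.89 without FLO 6 and 0.58 without Fibrotic 4. Hmox1 is also a gene of Kupffer cells and other macrophages. Of 9 Kupffer cell markers 8 were called higher, with summed levels of 291 to 598 CPM in Fibrotic and 246 to 284 CPM in FLO livers. Of 10 macrophage markers 4 were called higher (208 to 455 against 141 to 223 CPM), among them Spp1, also counted above as a cholangiocyte marker. None of these markers was at 0 in all libraries. Their part in the Hmox1 values was not tested, and in whole liver more cells of a type and more RNA per cell cannot be told apart.

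Per kilobase of its longest transcript, the order of the members differed between groups. In FLO livers Ephx1 came first at 657 CPM per kilobase, followed by Gclc at 109 and Osgin1 at 40.7 CPM per kilobase. In Fibrotic livers Osgin1 came first at 972, followed by Ephx1 at 476 and Gclc at 422 CPM per kilobase. Ephx1 and Gclc lay within the SD between livers of each other there, as did Txnrd1 and Srxn1 and, in turn, Gclm, Gsr and Hmox1 (34.7 to 29.4 CPM per kilobase). Nqo1 stood at 12.8 CPM per kilobase in Fibrotic and 20.2 in FLO livers, and Slc7a11 was last in both groups at 0.384 and 0.0242 CPM per kilobase.

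The members varied together to different degrees within a group, a spread that the choice of the genes did not use. Fibrotic 4 was the highest of its group in 6 of the 10 members (Osgin1, Gclm, Txnrd1, Hmox1, Gsr and Slc7a11) and the lowest in 2 (Nqo1 and Ephx1). FLO 1 was the highest of its group in 7 members (Gclc, Gclm, Nqo1, Srxn1, Txnrd1, Gsr and Ephx1). In FLO livers Gclc and Gclm went together (Pearson r = 0.98, exact permutation p = 0.00833, adjusted 0.0938, Spearman rho = 0.89, exact permutation p = 0.0333, adjusted 0.188, n = 6), and r was 0.99 without the 2 livers farthest from the median of Gclc. In Fibrotic livers Txnrd1 and Hmox1 went together (r = 0.96, exact permutation p = 0.00139, adjusted 0.0625, rho = 1, exact permutation p = 0.00278, adjusted 0.0625, n = 6), with r = 0.95 without the 2 farthest. Nqo1 and Txnrd1 ran in opposite directions in Fibrotic livers (r = -0.91, exact permutation p = 0.00417, adjusted 0.0938, rho = -0.94, exact permutation p = 0.0167, adjusted 0.150, n = 6), with r = -0.69 without the 2 farthest. In FLO livers the same pair ran in 1 direction (r = 0.89, exact permutation p = 0.0222, adjusted 0.105, rho = 0.94, exact permutation p = 0.0167, adjusted 0.150, n = 6), and r was 0.72 without the 2 farthest. The difference between the groups in this pair was not tested. The pairs named here kept their sign without the 2 farthest livers, but not all pairs did. Over all pairs r kept its sign in 30 of 45 in Fibrotic and 38 of 45 in FLO livers. In Fibrotic livers Txnrd1 and Ephx1 went from r = -0.94 to 0.04 without the 2 farthest.

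Over all 90 relations, 45 pairs in each group, none passed an adjusted p of 0.05 (Benjamini-Hochberg), by Pearson or by Spearman. By Pearson 15 pairs in Fibrotic and 15 in FLO livers had an unadjusted exact permutation p under 0.05, and by Spearman 5 and 11 did. The smallest two-sided p that 720 pairings allow was 0.00139, and pairs share both library and normalisation. The smallest adjusted p was 0.0625, held by pairs at the smallest possible p. A few such pairs could therefore not pass, and no absence of relations is read from this. The median r was 0.03 in Fibrotic and 0.36 in FLO livers. It was 0.75 in FLO livers without FLO 3 and about 0 without FLO 1, so the FLO median rests on single libraries.

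**Figure D4:**
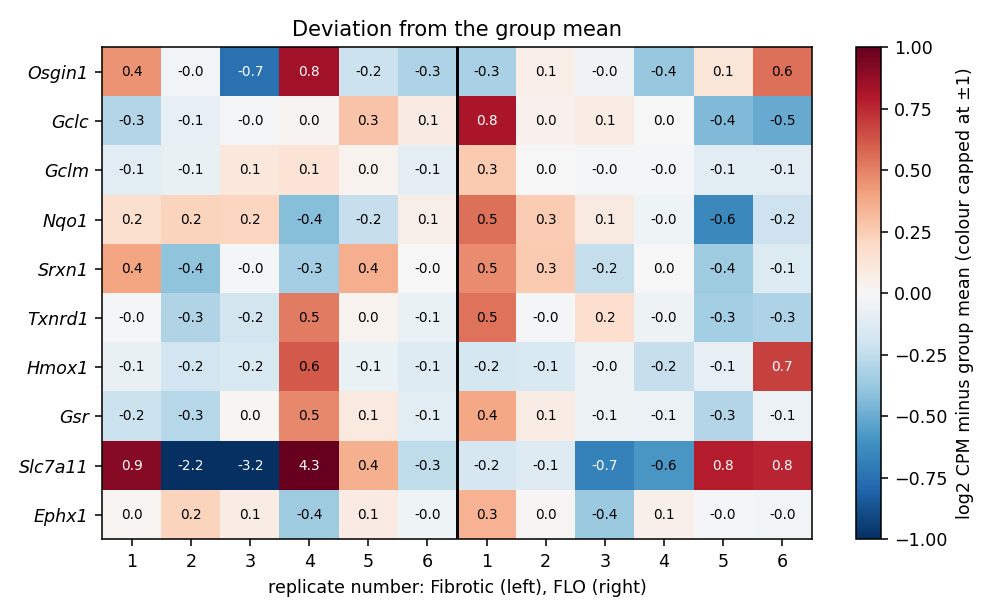
Log2 CPM of each member in each library minus the mean of its group, printed in every cell and coloured from blue (below) to red (above), with the colour capped at 1 either way. The column of Fibrotic 4 is above the mean in 7 members, by 0.02 only in Gclc, and below it in Nqo1, Srxn1 and Ephx1, and the column of FLO 1 is red in 7.

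Further genes of the Nrf2 pathway were taken from lists by role, 91 genes of which 89 were tested. Of these 22 rose and 9 fell in Fibrotic livers by the call above, which is 34.8% beside 29.9% of all genes, and 32 of the 89 did not overlap between groups, beside 30.4% of all genes. Their median log2 fold change was 0.19. With 1 library left out the number that rose ran from 20 to 24 and the number that fell from 6 to 10. The adjusted p-values below are from edgeR over all 13416 genes tested.

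**Figure D5:**
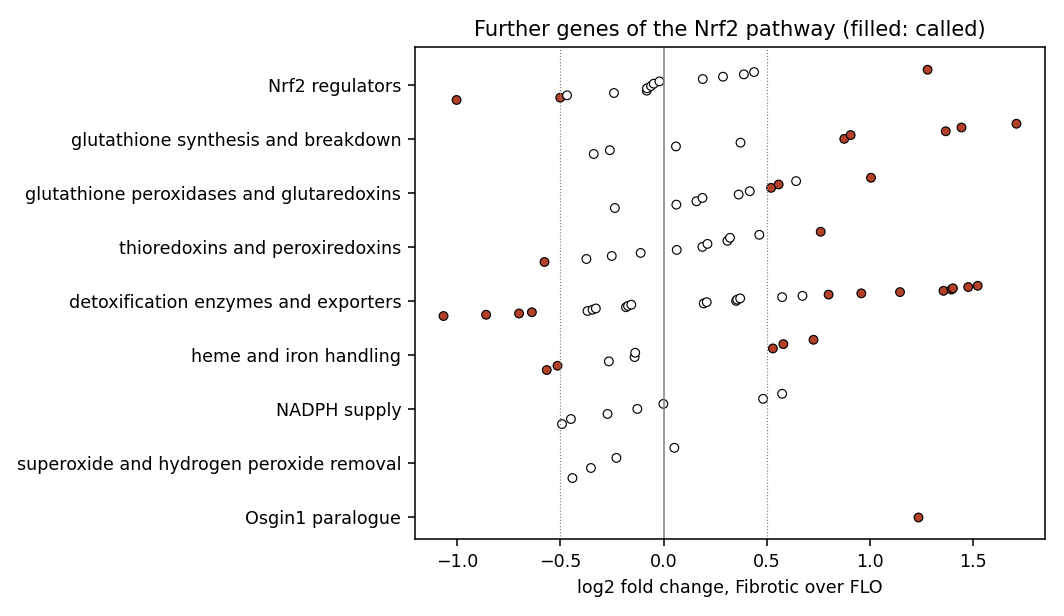
Log2 fold change, Fibrotic over FLO, of the 89 further genes tested, 1 point a gene, grouped by list from the regulators of Nrf2 at the top to Osgin2 at the bottom. Filled points were called. The list of glutathione synthesis and breakdown holds 5 filled points, all right of 0, and the NADPH supply and superoxide removal lists hold none.

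Among the regulators, 1 of 14 rose and 2 fell. Nfe2l2, which encodes Nrf2 itself, rose from 84.2 ± 7.90 to 205 ± 69.9 CPM (SD, n = 6 each), a log2 fold change of 1.28 (SE 0.18, edgeR adjusted p = 3.07e-05). Keap1 was at 0.19 (SE 0.09, edgeR adjusted p = 0.105), and Bach1, a repressor that competes at AREs, at -0.05 (edgeR adjusted p = 0.816). Sqstm1, the p62 protein that binds Keap1 and is itself a target, fell by 0.50 on the log2 scale (edgeR adjusted p = 2.97e-04), a value at the fold threshold that failed it without Fibrotic 1, 2, 4 or 6 or FLO 1, 3 or 6. Maff, a small Maf protein, was 2.01-fold lower (edgeR adjusted p = 0.00737), and this call held in only 2 of the 12 fits with 1 library left out, those without FLO 3 or FLO 4.

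Of the 9 tested genes of glutathione synthesis and breakdown, a list that includes amino acid carriers, 5 rose by edgeR and limma-voom. By DESeq2 6 rose, a count over all 10 listed genes and not over these 9. None fell by edgeR, limma-voom or DESeq2 (1 was lower at an unadjusted p under 0.05). Gss, the second enzyme of synthesis, rose from 103 ± 18.2 to 189 ± 21.9 CPM (SD, n = 6 each), a log2 fold change of 0.88 (edgeR adjusted p = 3.25e-05). Slc3a2, the heavy chain that pairs with Slc7a11 and with other amino acid transporters, rose by 1.71 (edgeR adjusted p = 1.44e-09). Slc1a5 and Slc1a4, carriers of neutral amino acids, rose by 1.44 and 1.37, and Ggct, which splits gamma-glutamyl amino acids, by 0.91. The groups did not overlap in these 5 of the 9 genes tested, beside 30.4% of all genes tested. Ggt1 was too low to be tested by edgeR.

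Of 10 glutathione peroxidases and glutaredoxins tested, 3 rose, and none fell by edgeR, DESeq2 or limma-voom (1 was lower at an unadjusted p under 0.05). Gpx1, the main cytosolic peroxidase of hepatocytes, had a log2 fold change of 0.56 (edgeR adjusted p = 0.00194), which was lost as a call without Fibrotic 1. Gpx3, the secreted peroxidase, was at 1.01 (edgeR adjusted p = 0.00329), and Glrx5, a mitochondrial iron-sulfur cluster protein, at 0.52 (edgeR adjusted p = 3.24e-05), a call lost without Fibrotic 6. Of 11 thioredoxins and peroxiredoxins, the mitochondrial Prdx3 rose by 0.76 (edgeR adjusted p = 7.83e-07). Prdx1, a cytosolic substrate of sulfiredoxin, fell from 887 ± 69.8 to 594 ± 90.1 CPM (SD, n = 6 each), by 0.58 on the log2 scale (edgeR adjusted p = 4.2e-04). Txn1, the substrate of Txnrd1, was at 0.06 (edgeR adjusted p = 0.642).

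The detoxification enzymes and exporters went both ways, 8 of 25 rising and 4 falling. Cbr1 and Cbr3, carbonyl reductases, had log2 fold changes of 1.52 (edgeR adjusted p = 6.35e-07) and 1.48 (edgeR adjusted p = 0.00624), and the call of Cbr3 held in 3 of the 12 fits with 1 library left out, those without Fibrotic 2, FLO 1 or FLO 3. Aldh1a1, a retinaldehyde dehydrogenase, rose from 2738 ± 329 to 7241 ± 848 CPM (SD, n = 6 each), by 1.40 (edgeR adjusted p = 2.12e-07). Gstm3, a glutathione S-transferase, was at 1.40 (edgeR adjusted p = 1.72e-04), and Gstm6, of the same family, at -1.07. The Gst genes are close paralogues whose reads the counting could have split, so their values are uncertain.

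In heme and iron handling 3 of 8 rose and 2 fell. Ftl1, the ferritin light chain, was at 0.73 (edgeR adjusted p = 2.91e-04), Hmox2, the constitutive heme oxygenase, at 0.58 (edgeR adjusted p = 3.24e-06), and the iron exporter Slc40a1 at 0.53 (edgeR adjusted p = 8.52e-05), a call lost without FLO 5 or FLO 6. The heme transporter Slc48a1 fell by 0.57 (edgeR adjusted p = 9.64e-05). None of the 7 genes of NADPH supply was called by edgeR, though 3 missed only the fold threshold. These were Pgd at 0.48 (edgeR adjusted p = 0.00524), Tkt at -0.49 (edgeR adjusted p = 0.00391) and Idh1 at -0.45 (edgeR adjusted p = 0.00447). By limma-voom 1 was called higher and 1 lower (DESeq2 1 lower). G6pdx, the entry enzyme of the pentose phosphate pathway, stood at 0.57 (edgeR adjusted p = 0.143), and at 0.12 without Fibrotic 4. None of the 4 genes of superoxide and hydrogen peroxide removal was called by edgeR, DESeq2 or limma-voom, though 3 had an unadjusted p under 0.05, all lower. Catalase (Cat) stood at -0.44 (edgeR adjusted p = 0.0183) and Sod1 at -0.35 (edgeR adjusted p = 0.0174). Cat passed both thresholds as lower without Fibrotic 2 or Fibrotic 3.

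Osgin2, the only paralogue listed for Osgin1, rose from 2.45 ± 0.491 to 5.77 ± 1.26 CPM (SD, n = 6 each), a log2 fold change of 1.24 (edgeR adjusted p = 2.93e-05) without overlap.

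Some members also respond to other transcription factors, and a few genes of those were listed. Nqo1 is also a gene of the aryl hydrocarbon receptor. Of that receptor's 4 tested genes, Cyp1a1 rose from 1.43 ± 0.536 to 37.2 ± 16.9 CPM (log2 fold change 4.69, edgeR adjusted p = 5.86e-07) and Tiparp by 0.61 (edgeR adjusted p = 0.00435), while Cyp1a2 fell by 1.90 (edgeR adjusted p = 4.76e-06). The call of Tiparp was lost without Fibrotic 4 or 5 or FLO 1 or 5. The core GCGTG of that receptor's element was absent from the Nqo1 window and present in 35.2% of genes. Slc7a11 is also a gene of Atf4. Of 6 tested genes of Atf4, 2 rose and 4 were not called. Asns, asparagine synthetase, rose by 3.52 (edgeR adjusted p = 8.51e-05), from 0.575 ± 0.133 to 6.66 ± 4.90 CPM (SD, n = 6 each). Its FLO level was low, at 0.383 to 0.711 CPM, and its lowest count over all libraries was 7, so the size of this change is uncertain. Sesn2 rose by 0.67 (edgeR adjusted p = 0.00535), a call lost without Fibrotic 1 or 6 or FLO 3, 4, 5 or 6. Ephx1 is also a gene of the constitutive androstane receptor. Of 3 tested, Cyp2b9 fell by 1.25 (edgeR adjusted p = 4.33e-04), and Cyp2b10 was at -0.11 (edgeR adjusted p = 0.737).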

How the data were processed

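Liver RNA of 12 ob/ob mice (6 Fibrotic, 6 FLO) was sequenced as poly(A)-selected libraries. The authors deposited 1 table of raw counts per Ensembl gene, with no normalization. Per the labels' processing notes, bcl2fastq and STAR 2.7.3a were used with mm10. The study's methods name a stranded mRNA kit for its RNA-seq. The annotation release for mouse and whether the counting used strand are not given in the sources used here. The table holds 2122 identifiers of a series newer than GENCODE M21, so coordinates are those of GENCODE M21 and RefSeq GRCm38.p6 and not of the table. Symbols came from a separate name table (51745 of 56205 identifiers matched, the rest holding 0.0587% of counts). Total counts ran from 17815568 to 24814263. Every pair of libraries of one group differed by more than sampling noise (smallest chi-square per degree of freedom 10.3).

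Groups and replicate numbers came from the sample titles. Counts were fitted with the edgeR 4.0.16 quasi-likelihood test (R 4.3.3, robust, TMM, filterByExpr, no covariate), with Benjamini-Hochberg adjustment over all genes tested. The study's own thresholds were used for a call (FDR at most 0.01, log2 fold change beyond 0.5 either way). The SE is the absolute log2 fold change over the square root of F. Log2 CPM used a prior count of 2. Correlations within a group used all 720 pairings. The fit was tested on simulated counts. Alternatives were upper quartile or RLE scaling, TMM with the 50 most counted genes removed, no filter beyond 1 count, a minimum of 10 counts per sample, limma-voom (limma 3.58.1), DESeq2 1.42.0, a replicate block, an FDR of 0.05 with no fold threshold, and leaving out each library.

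The members and the lists were chosen with earlier results of these data known. Named are the 10 members, up to 4 called genes of each further list with the largest absolute log2 fold change and a mean of at least 1 CPM, and 13 genes named whatever their value (Nfe2l2, Keap1, Bach1, Sqstm1, Gss, Txn1, Prdx1, Gpx1, G6pdx, Cat, Sod1, Osgin2 and Cyp1a1). Gstm6, Cyp2b10, Ggt1, Pgd, Tkt, Idh1, Gm17494, Gm6061, the cell type markers, Xist and Ddx3y fall outside this rule and were named after their values were seen.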

Additional observations from a re-analysis of the deposited data

Results flagged for a closer look

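Within a group of 6 livers, the gap of the highest or lowest liver to its neighbour was divided by the group's range, on the log2 CPM scale, for the 10 members and Nfe2l2 and for the log2 ratio of Gclc to Gclm. Of 24 such groups 3 exceeded Dixon's limit for 6 values, where chance alone flags about 1 in 20 groups, or 1.2 of 24. Hmox1 stood apart in both groups. Its highest Fibrotic liver was Fibrotic 4 at 69.2 CPM (gap 0.846 of the range), and its highest FLO liver was FLO 6 at 43.8 CPM (gap 0.802 of the range). Gclm stood apart in FLO 1, at 226 CPM against 174 to 189 CPM in the other 5 (gap 0.687 of the range). Slc7a11 in Fibrotic livers, although 1 library held most of its counts, did not exceed the limit on the log2 scale.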

How the results depend on the processing

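The members were chosen from this contrast, so how often they were called is a description and no sign of stability. Nqo1 was past both thresholds in 14 of 20 alternatives. The number of members called lower was 0 without a low-count filter and 0 to 2 with 1 library left out. With an FDR of 0.05 and no fold threshold, 8 members were called, 2 of them lower, and 52 further pathway genes, 20 of them lower. The share of all genes called at this looser rule was not computed. The share of 29.9% belongs to the stricter rule, so nothing is read from these counts. All other counts of called genes stayed within 1.5 times, including those over all genes (3566 with at least 10 counts in every sample to 4654 with DESeq2). Scaling moved the median log2 fold change of all genes between 0.03 with TMM and -0.002 with upper quartile. Of the 28 called genes that are not members, 19 kept their call in every alternative that held them, Asns not being held where at least 10 counts were required in every sample. Sign changes arose in Bach1 (-0.18 to 0.039 with 1 library left out), and in the median r of members, which was -0.030 in Fibrotic livers with RLE and -5.45e-06 to 0.75 in FLO livers with 1 library left out. No pair of members passed an adjusted p of 0.05 with a prior count of 0.5 or with RLE. With 1 liver left out the exact test of 5 could hardly reach it, so nothing is read from those fits. The cause of these changes was not tested. Same-numbered livers of the 2 groups did not deviate together (r from -0.16 to 0.10), so the numbers were not taken as pairs. With a replicate block 5 members, 31 further pathway genes and 3780 genes in all were called. Gpx1 and Maff lost their call under it. Counting depth limits Slc7a11 (0 to 8 counts in 8 libraries), for which fits that hold it gave a log2 fold change of 3.98 without the filter and 3.96 with DESeq2, against 1.60 as a difference in mean log2 CPM.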
